A study of Caenorhabditis elegans with 2 samples.

Results

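The nuclear genome of the nematode Caenorhabditis elegans carries 612 annotated tRNA genes, of which 336 lie on the 5 autosomes and 276 on the X chromosome. The 336 autosomal genes, all genes of biotype tRNA on those chromosomes in the Ensembl WBcel235 annotation, are the loci described here. Chromatin immunoprecipitation followed by sequencing had been performed on early embryos, labelled as 1 hour old and obtained by egg bleaching, in 2 biological replicates of 1 group. The strain, OP368, carries the transgene wgIs368, in which the T-box gene tbx-11 on a trimmed fosmid is fused to TY1, EGFP and 3xFLAG tags, together with unc-119(+) as a rescue of the unc-119(tm4063) background. The sample description names an anti-GFP antibody, and the antibody field names tbx-11. The protein that was pulled down is therefore described as an added, tagged copy in whole embryos, and every nucleus that expressed it could contribute. There was no second group, so the comparisons are between classes of loci and between replicates. A locus is called bound when a summit, the highest point of a peak, lies within 100 bp of it in the conservative thresholded list. That list holds 882 peaks called from both replicates. The signal is the authors' own strength value of each peak, on a scale not given in the sources used here. It is compared within a list only. Read counts were not analysed here, and the depth of each library is unknown.

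Transfer RNAs carry amino acids to the ribosome, and their genes are copied by RNA polymerase III. The promoter of a tRNA gene lies inside the gene. The assembly factor TFIIIC binds an A box near the start and a B box in the part that encodes the T arm, and it places TFIIIB just upstream. TFIIIB then recruits the polymerase, which stops at a run of T bases behind the gene. T-box proteins such as TBX-11 are DNA-binding regulators of genes that are copied by RNA polymerase II. Nematode tRNA genes occur as many identical copies that are scattered over the genome, often inside introns of protein-coding genes.

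The genes below show the range of the data, from strongly bound to no candidate peak. Each is printed from 20 bases before the gene to the end of the first T run behind it, 5′ to 3′ on the strand of the tRNA, read from the RefSeq copy of the ce11 assembly. Capitals mark a match to the A box (TNGNNNAGT), a match to the B box (GTTCGANNC) and the T run. The first pair are copies of 1 tRNA-Lys sequence with 14 nuclear copies. F18C5.t1 (II:6565248-6565320, + strand) was bound with a signal of 186. ZK994.t1 (V:8495302-8495374, + strand) is the same from the first base of the gene to the last T, and no candidate peak lay within 100 bp of it.
F18C5.t1, tRNA-Lys, bound: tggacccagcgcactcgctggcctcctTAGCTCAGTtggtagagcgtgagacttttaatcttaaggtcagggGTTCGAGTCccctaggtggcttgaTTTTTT
ZK994.t1, tRNA-Lys, no candidate: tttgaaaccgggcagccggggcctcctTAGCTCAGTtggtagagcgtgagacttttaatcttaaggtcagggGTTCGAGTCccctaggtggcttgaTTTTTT
The next pair are bound genes that have no identical copy. F57F5.t1 (V:12002176-12002260, + strand) is a tRNA-Ile gene with both boxes and a signal of 413. K06A4.t1 (V:9503562-9503633, + strand) is a tRNA-Ala gene with neither of the spelled-out boxes and a signal of 310.4.
F57F5.t1, tRNA-Ile, bound: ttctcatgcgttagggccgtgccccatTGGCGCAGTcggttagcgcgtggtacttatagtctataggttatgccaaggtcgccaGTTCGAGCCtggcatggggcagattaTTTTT
K06A4.t1, tRNA-Ala, bound: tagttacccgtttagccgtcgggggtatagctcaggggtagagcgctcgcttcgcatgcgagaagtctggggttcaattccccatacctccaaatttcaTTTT
The last pair had no candidate and differ from every other tRNA gene by many single-base edits. T13B5.t2 (II:1102360-1102432, - strand) is annotated as tRNA-Thr and is 24 edits from its nearest relative. VK10D6R.t1 (V:11183666-11183765, - strand) is annotated as tRNA-Leu and is 20 edits away.
T13B5.t2, tRNA-Thr, no candidate: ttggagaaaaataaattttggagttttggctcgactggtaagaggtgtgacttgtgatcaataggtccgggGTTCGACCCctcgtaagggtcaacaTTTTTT
VK10D6R.t1, tRNA-Leu, no candidate: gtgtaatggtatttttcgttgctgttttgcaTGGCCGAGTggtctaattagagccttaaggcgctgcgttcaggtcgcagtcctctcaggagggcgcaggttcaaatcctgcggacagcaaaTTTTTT

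About 2 in 5 autosomal tRNA genes were bound. The count was 139 of 336, or 41.4% (Clopper-Pearson 95% interval 36.1 to 46.8). Windows of 72 bp, the median length of a tRNA gene, taken every 1000 bp along the autosomes, held a summit within 100 bp in 0.218% of cases (180 of 82556). The share was 30.1% (101 loci) in the list of replicate 1 and 33.6% (113 loci) in that of replicate 2, with 0.139% and 0.114% of windows. The second thresholded list, also made from both replicates, gave 144 loci, or 42.9%, with 0.266% of windows. It shared 133 bound loci with the conservative list. Intervals cover counting error over loci only, and they treat loci as independent although copies and neighbours share sequence, and 8 of the bound loci share a summit with another tRNA gene.

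The remaining 197 loci were of 2 kinds. A candidate peak of the ranked list, which has no threshold and holds 87796 peaks, lay within 100 bp of 247 loci (73.5%, against 23.4% of windows). So 108 unbound loci had a candidate below the threshold and 89 had none. Of those 89, 63 also had none in the ranked list of either replicate. The median signal of the strongest candidate was 138 at bound loci (interquartile range 103 to 193), against 45.4 at unbound loci with a candidate (29.3 to 61.2). This gap was set by the threshold in part, since the threshold acts on the reproducibility of ranks. The classes overlapped from 64.4, the lowest bound value, to 91.7, the highest unbound value. In this range lay 20 bound loci, besides unbound loci that were not counted.

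**Figure D1:**
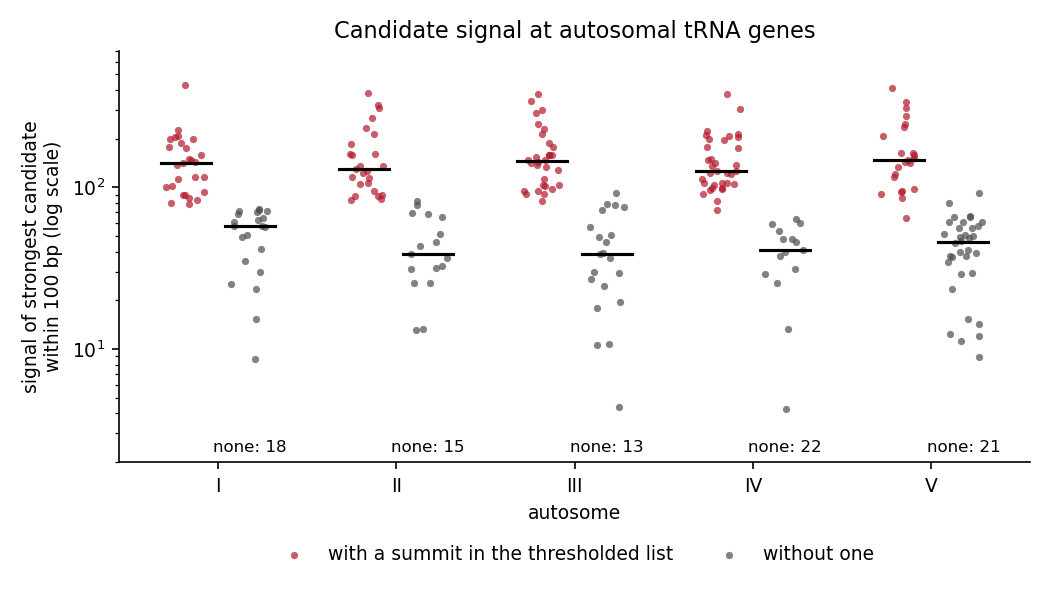
Signal of the strongest candidate peak within 100 bp of each autosomal tRNA gene (log scale), by autosome, for loci with a summit in the conservative thresholded list (red, left) and without one (grey, right). Bars are medians, and the number of loci with no candidate stands under each grey column: 18, 15, 13, 22 and 21 from I to V.

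The strongest loci were spread over all 5 autosomes. C37A2.t1 (I:6781803-6781874), a tRNA-Cys gene within cye-1, which encodes cyclin E, had the highest signal, 432, and ranked 14 in the whole list. Its candidate had a signal of 255 in replicate 1 and 171 in replicate 2. Next came F57F5.t1 (413), the tRNA-Ile gene T21B4.t1 on II (385), the tRNA-Arg gene F29C4.t1 on IV (379.7) and the tRNA-Trp gene B0523.t1 on III (377). T21B4.t1 and F29C4.t1 lie within the collagen genes col-85 and col-99 on the strand opposite to the host, and B0523.t1 lies within fli-1 on the same strand. The other 7 of the 12 strongest were F56F3.t1 (tRNA-Arg, 341), ZC455.t1 (tRNA-Ser, 335), F35H8.t1 (tRNA-Arg, 324), K06A4.t1 (within swt-5, 310.4), F33G12.t1 (tRNA-Ile, 308), B0350.t1 (tRNA-Lys, 305) and T15B12.t1 (tRNA-Met, 300.3). All 12 were in the lists of both replicates, with signals from 161 to 255 in replicate 1 and from 128 to 172 in replicate 2. Each had its nearest other tRNA gene at least 10855 bp away.

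The unbound loci with the highest candidates were F28F8.t4 (tRNA-Ser, V, 91.7), M01E10.t2 (tRNA-Glu, III, 91.7), Y57A10B.t1 (tRNA-Ile, II, 82.2) and C18D4.t1 (tRNA-Tyr, V, 79.8). In each of them replicate 1 exceeded replicate 2. M01E10.t2 had 74.9 in replicate 1 and 21.1 in replicate 2, and F28F8.t4 had 60.2 and 25.7. Both of these passed the threshold of replicate 1 alone. At the edge of the distance rule, the bound loci farthest from their summits were Y7A9D.t3 (98 bp), Y22D7AL.t3 (96 bp) and W09D6.t2 (95 bp). The unbound loci nearest to one were W09G10.t3 (106 bp), ZK970.t4 (107 bp) and F10C1.t1 (112 bp). Of these, F10C1.t1 was in the lists of both replicates, W09G10.t3 in that of replicate 2 and ZK970.t4 in neither.

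Most bound loci were also in the list of at least 1 replicate. The conservative list was itself called from both replicates, so the replicate lists are not independent of it. Of the 139, 87 were in both replicate lists, 28 were in 1 of them and 24 were in neither. The median signal was 162 for loci in both lists, 104 for the 19 in replicate 2 only, 107 for the 9 in replicate 1 only and 90.6 for the 24 in neither. A further 11 loci were in a replicate list without being bound. Both replicates had a candidate at 134 bound loci, where Spearman's rho between their signals was 0.741 and Pearson's r of the log2 signals was 0.776. At 60 unbound loci with candidates in both, rho was -0.066 and r was -0.133. These correlations run across loci that share libraries and a control, and the bound class was selected for concordant ranks. Replicate 1 exceeded replicate 2 at 95 of the 134 bound loci, with a median ratio of 1.20 between lists whose scales may differ.

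**Figure D2:**
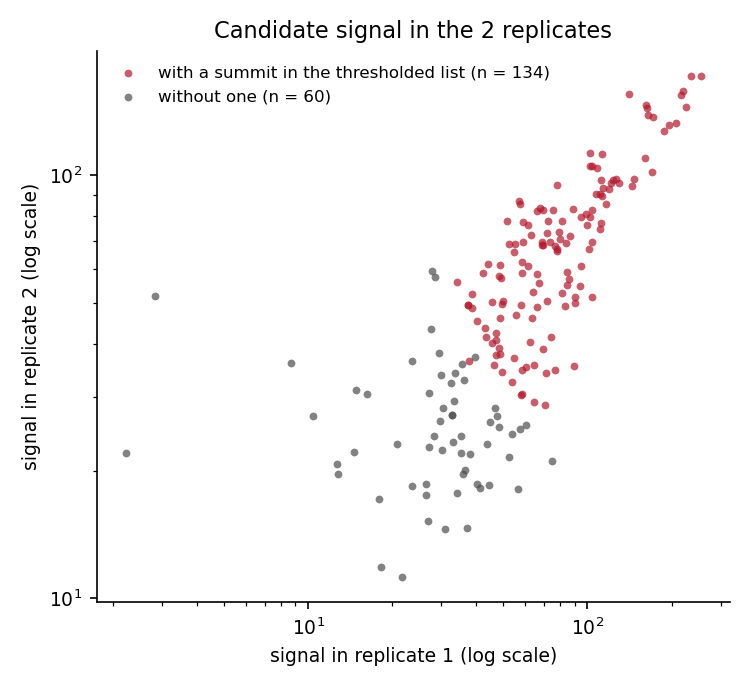
Signal of the strongest candidate within 100 bp in replicate 1 (horizontal) and replicate 2 (vertical), both on log scales, for 134 autosomal tRNA genes with a summit in the conservative thresholded list (red) and 60 without one (grey). Red points follow a common diagonal, and grey points form a cloud at low values.

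Most summits sat inside the gene, and their median position fell in its first part. The nearest summit lay a median of 22 bp downstream of the first base of the gene along its strand (interquartile range 8.5 to 36.5, 139 loci), at a median gene length of 72 bp. It was inside the gene at 106 loci, upstream at 25 and downstream at 8. It was inside and nearer to the start than to the end of the gene at 82 loci. In replicate 1 this was so at 47 of 101 loci, and in replicate 2 at 65 of 113. The median was 20 bp in replicate 1, 21 bp in replicate 2 and 19 bp on X. Among the bound loci the first base of an A box match lay at a median of 8 bp (92 loci) and that of a B box match at 53 bp (97 loci). The median summit therefore fell between them. Peaks at bound loci were a median of 330 bp wide, so an offset of this size is far below the width of a peak. At the 108 unbound loci with a candidate the nearest candidate summit was at a median of 29 bp and more scattered (-0.5 to 57.8).

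**Figure D3:**
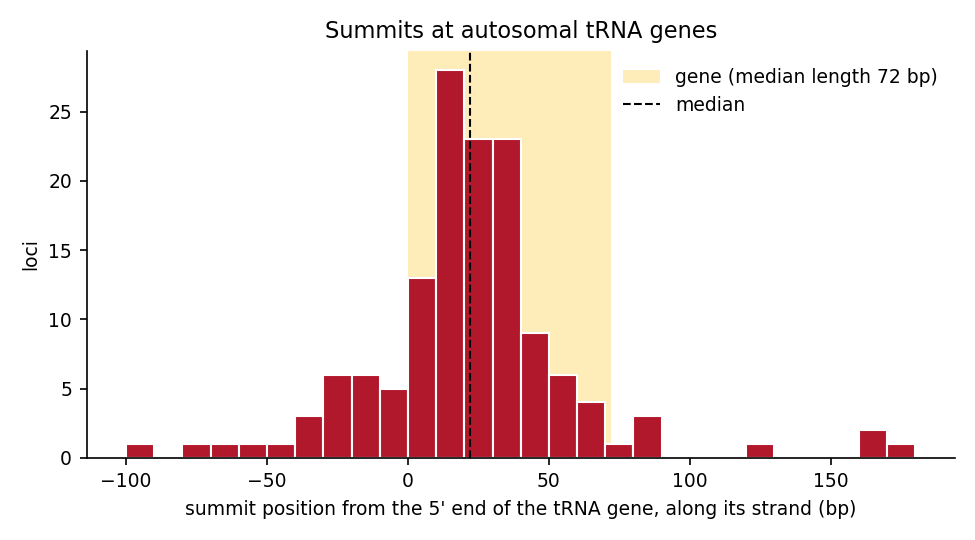
Position of the nearest summit relative to the 5′ end of the gene, along the strand of the tRNA, in 10-bp bins for the 139 bound autosomal tRNA genes. The shaded span is a gene of median length (72 bp) and the dashed line is the median of 22 bp; 106 summits lie inside the gene.

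Fixed spellings of the internal promoter boxes did not separate bound from unbound genes. The B box spelling GTTCGANNC was present on the coding strand in 241 of 336 genes (71.7%), against 0.257% of the autosomal windows on the same strand. It was in 69.8% of bound genes, against 73.1% of unbound genes. The A box spelling TNGNNNAGT was present in 211 genes (62.8%), against 5.68% of windows, with 66.2% of bound genes and 60.4% of unbound genes. Both together stood in 41.0% of bound genes, against 40.1% of unbound genes. Counted by gene class, 40.2% of genes with a match to this B box spelling were bound, against 44.2% of genes without one. The difference was -3.96 points (Newcombe 95% interval -15.6 to 7.49). For the A box spelling the shares were 43.6% with a match, against 37.6% without (6.0 points, -4.90 to 16.5). A gene without a match may hold another spelling of the box. These contrasts therefore compare spellings, not the presence and absence of a box. On the opposite strand, which these counts leave out, 16 genes held a B box match and 1 an A box match. On the coding strand 0 genes had an A box match that overlapped a B box match. A run of 4 or more T within 50 bp behind the gene was present at 332 of 336 loci, a median of 5 bp from the gene end in both classes, and in 51.6% of windows. None of the 4 loci without it was bound, which leaves an interval of 0 to 60.2%, and 1 of them, W09G10.t3, was in the list of replicate 2.

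Genes with no identical copy elsewhere were bound less often. Of 86 unique genes, 25 were bound (29.1%), against 114 of 250 genes with at least 1 identical nuclear copy (45.6%). The difference was -16.5 points (95% interval -27.1 to -4.56), which excludes 0. In replicate 2 it was -15.5 points (-25.2 to -4.09). In replicate 1 it was -10.7 points and the interval reached 0.589, so that list alone did not show it. The interval also included 0 with summits inside the gene only (-11.1 points, -20.9 to 0.283) and with a window of 200 bp (-11.5 points, -22.6 to 0.637). The lower share went with sequence divergence, a split made after the values were seen. Of the unique genes within 5 edits of another tRNA gene 23 of 64 were bound (35.9%), of those at 6 to 12 edits 2 of 10, and of those over 12 edits 0 of 12, an upper limit of 26.5%. Of these 12, 7 did have a candidate.

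Reads from identical copies can be assigned only where they reach sequence that is unique. As a measure of this, the share of 50-base words found once in the nuclear genome was taken over each gene and 150 bp to each side. Its median was 89.4% at bound and 89.5% at unbound loci. In the 34 loci where it was under 80%, 4 were bound (11.8%), against 135 of 302 loci at 80% or more (44.7%), a difference of -32.9 points (-42.0 to -17.1). Of these 34, 28 have identical copies. Without them the difference between unique and repeated genes was -18.3 points (31.2% against 49.5%, interval -29.5 to -5.67). The same difference was -16.8 points (-27.1 to -4.67) in replicate 2, and in replicate 1 it was -11.8 points (-22.1 to 0.165), where the interval included 0. The read length and the handling of reads with several placements are not given in the sources used here.

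Copies of the same sequence were bound in some places and unbound in others. The 336 loci hold 137 sequences, of which 43 occur at least 2 times on the autosomes. Of those 43, 31 had both bound and unbound copies, 4 had all copies bound and 8 had none. Among the 23 sequences with 5 or more autosomal copies, 22 were mixed. All 336 loci become unique once 50 bp of flank is included on each side, so copies differ in their surroundings. Whether the surroundings bear on binding was not tested.

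The largest family is a tRNA-Gly sequence with 18 autosomal copies of 29 in the genome. Of these 8 were bound, with Y43D4A.t2 highest (207), followed by Y82E9BR.t1 (133) and Y57G11B.t1 (120.4). The neighbours F49D11.t1 and F49D11.t2 share a summit of 116, and K04C2.t1 and K04C2.t2 lie on either side of a summit of 94.9. The nearest summit to K04C2.t1 was another one, 56 bp away, with a signal of 16.8. Neither K04C2.t1 nor K04C2.t2 was in a replicate list. The remaining bound copy was T04D3.t2 (89.7). Among the 10 unbound copies, 8 had candidates from 23.4 to 71.2 and 2 had none. The replicate lists held 3 of the 18 copies in replicate 1 and 7 in replicate 2.

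The count of bound copies varied between other families, beside a share of 41.4% over all autosomal loci. The families named here were picked for their range, and whether family shares differ was not tested. A tRNA-Lys sequence had 10 bound of 15, a tRNA-Asp sequence 7 of 11 and a tRNA-Ala sequence 6 of 8. A tRNA-Asn sequence had 4 of 13 and a tRNA-Leu sequence, found on I and II only, 1 of 7. In the conservative list the tRNA-Cys sequence of C37A2.t1 was the only one with 5 or more copies to have all bound, 5 of 5. Their signals were 432, 158, 138, 134 and 98.1. Each replicate list held 4 of the 5. The highest copy of this sequence exceeded the lowest 4.40 times, in bound copies alone. In the tRNA-Lys family shown above 5 of 9 copies were bound. F18C5.t1 had 186, K04C2.t3 had 177, T23F1.t1 had 162, Y70C5A.t1 had 148 and C09B9.t1 had 107. T23F1.t1 shares its summit with the tRNA-Pro gene T23F1.t2, 67 bp away, so the 162 cannot be assigned to 1 of them. Of the unbound copies of this family, W07G4.t1 had a candidate of 29.7 and F49C5.t4 one of 25.5, and ZK994.t1 and ZK994.t2 had none. The 5 bound copies lay on II, III, IV and V.

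**Figure D4:**
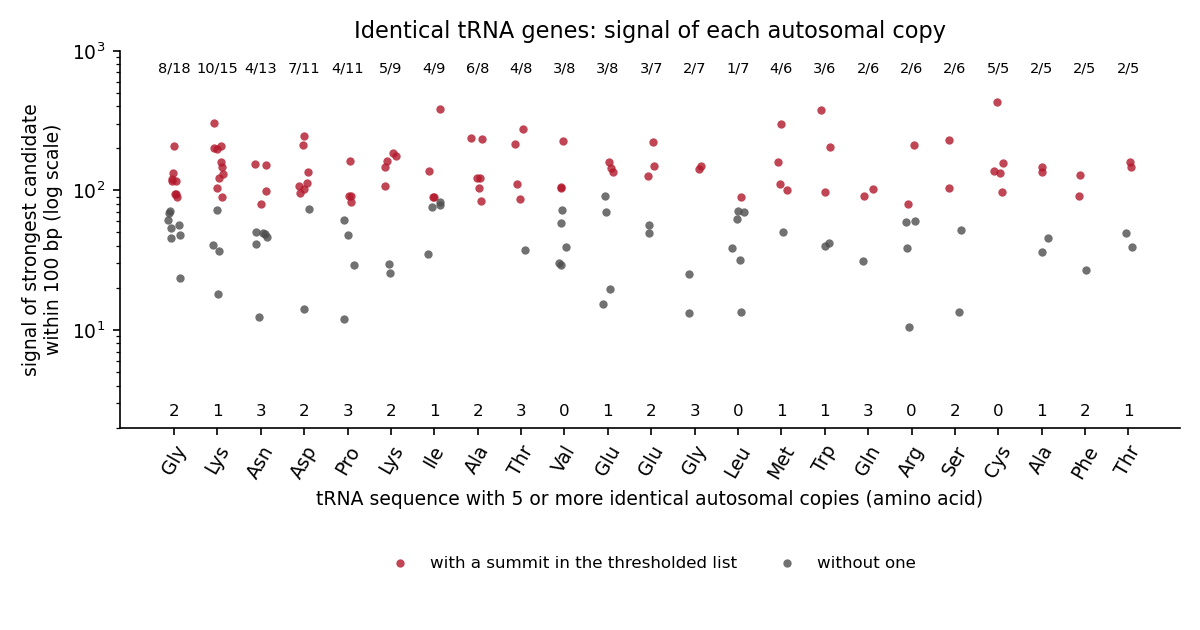
Signal of the strongest candidate within 100 bp (log scale) for every autosomal copy of the 23 tRNA sequences with 5 or more identical autosomal copies, 1 column per sequence, named by amino acid. Red copies have a summit in the conservative thresholded list and grey ones do not; the numbers above give bound over all copies and those below the copies with no candidate. Bound and unbound copies stand in the same column in 22 of the 23 sequences, and the tRNA-Cys sequence (5/5) has bound copies alone.

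Amino acid classes ranged widely, with wide intervals. Among classes of 10 or more loci in the conservative list, tRNA-Asp had the highest share, 9 of 15 (60%, 32.3 to 83.7), then tRNA-Ala with 12 of 21 and tRNA-Lys with 16 of 28 (57.1% each). The lowest were tRNA-Tyr, 2 of 11 (18.2%, 2.28 to 51.8), and tRNA-Ser, 5 of 21 (23.8%, 8.22 to 47.2). The most numerous class, tRNA-Gly, had 12 of 35. This order did not hold in the separate replicates. In both of them the highest share was that of tRNA-Arg (47.1%), the lowest was that of tRNA-Asn in replicate 1 (14.3%), and tRNA-Tyr was the lowest in replicate 2 (9.09%). The single selenocysteine tRNA gene was unbound and had a candidate. The strongest bound loci of the large classes were ZC455.t1 for Ser, K06A4.t1 for Ala, B0350.t1 for Lys, W02G9.t2 for Thr (275, within kel-8), C14B9.t2 for Leu (246), Y43D4A.t2 for Gly and F14B4.t2 for Pro (175). Genes with an annotated intron were bound in 5 of 17 cases, against 134 of 319 without one, and in the list of replicate 1 the order was the other way, with 6 of 17 against 95 of 319.

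In the conservative list chromosome V had the fewest bound genes for its number of loci. The counts were 27 of 66 on I (40.9%), 25 of 57 on II (43.9%), 30 of 64 on III (46.9%), 34 of 71 on IV (47.9%) and 23 of 78 on V (29.5%). V against the other 4 autosomes, a contrast picked after these shares were seen, gave -15.5 points (29.5% against 44.96%, -26.3 to -3.06). In replicate 2 the difference was -15.4 points. In replicate 1 it was -5.75 points (-16.0 to 6.19), where the interval included 0. It also included 0 with summits inside the gene only (-9.36 points, -19.5 to 2.56) and among peaks at or above the median signal (-11.5 points, -21.3 to 0.182). The lowest share in replicate 1 was that of I (24.2%), against 25.6% on V. The median signal of bound loci ran from 127 on IV to 148 on V. The order of the medians was not the same in the separate replicates, and in replicate 1 the highest was that of I (81.5), with 75.7 on V.

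Chromosome centres and arms gave nearly the same share. In the middle 50% of each autosome 70 of 170 loci were bound (41.2%), against 69 of 166 in the outer 25% at each end (41.6%), a difference of -0.39 points (-10.8 to 10.03). The direction was not the same on every autosome. On II 51.7% were bound in the centre, against 35.7% in the arms, and on I 35.1% in the centre, against 48.3% in the arms.

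The position within a protein-coding gene gave no detectable difference either. Of 194 loci inside the span of such a gene 85 were bound (43.8%), against 54 of 142 outside (38.0%), a difference of 5.79 points (-4.86 to 16.1). Hosted genes on the strand of their host were bound in 52 of 115 cases (45.2%), against 33 of 78 on the opposite strand (42.3%), a difference of 2.91 points (-11.2 to 16.7). All 3 loci within brd-1, the worm orthologue of the ubiquitin ligase subunit BARD1, were bound. Of these, K04C2.t1 and K04C2.t2 were in neither replicate list. None of 3 loci was bound in each of nimk-1, pash-1, pxn-1 and spe-9, and 1 of 3 was bound in srv-16. The gene pash-1 encodes a partner of the microRNA-processing enzyme Drosha.

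Loci close to a protein-coding start were bound more often under the distance rule, in a comparison added after the values were seen. Within 200 bp of a start 12 of 17 were bound (70.6%), against 127 of 319 farther away (39.8%), a difference of 30.8 points (6.43 to 47.7). The difference was 26.5 points in replicate 2 and 11.7 points (-8.54 to 35.0) in replicate 1. It was 23.0 points (-1.02 to 41.8) in the second thresholded list and 4.89 points (-13.9 to 28.8) among peaks at or above the median signal. With summits inside the tRNA gene only it was 10.1 points (-10.1 to 33.5). Examples were K07A1.t1 (141, start 59 bp away), F18C5.t1 (186, 76 bp) and F44A2.t1 (95.1, 38 bp), whose summit lay 31 bp upstream of the tRNA gene.

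Genes with another tRNA gene nearby tended to be bound less often. Within 1 kb of another tRNA gene 34 of 101 loci were bound (33.7%), against 105 of 235 isolated loci (44.7%). The difference was -11.02 points, and its interval (-21.6 to 0.475) just included 0. In each replicate list it excluded 0, at -17.5 points (-26.4 to -7.11) in replicate 1 and -12.7 points (-22.4 to -1.71) in replicate 2. When each summit was given to its nearest tRNA gene alone the difference was -14.98 points (-25.2 to -3.60). Other settings gave a smaller difference whose interval included 0, with -6.07 points (-17.0 to 5.49) in the second thresholded list, -5.50 points (-16.5 to 6.07) with a window of 200 bp and -6.49 points (-17.5 to 5.08) by peak overlap. Among repeated sequences alone it was -11.8 points (-23.9 to 1.19).

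The neighboured loci form 46 groups, with 39 pairs, 5 groups of 3 and 2 of 4. Of the pairs, 6 had both members bound, 15 had 1 and 18 had none. The groups of 4 stood at opposite ends. In the group Y65A5A on IV (16398384-16400967), with tRNA-Ala, Ala, Val and His genes all on the + strand, 3 were bound, Y65A5A.t1 at 123, Y65A5A.t2 at 122 and Y65A5A.t4 at 71.996. Its remaining member, Y65A5A.t3, had a candidate of 29.1. The group C12C8.t2 to C12C8.t5 on I (9327424-9328701) holds 4 copies of the large tRNA-Gly family on alternating strands, and none was bound. Candidates within its span had signals of 71.2 at C12C8.t2 and 68.7 at C12C8.t4, and C12C8.t2 was in the list of replicate 2.

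**Figure D5:**
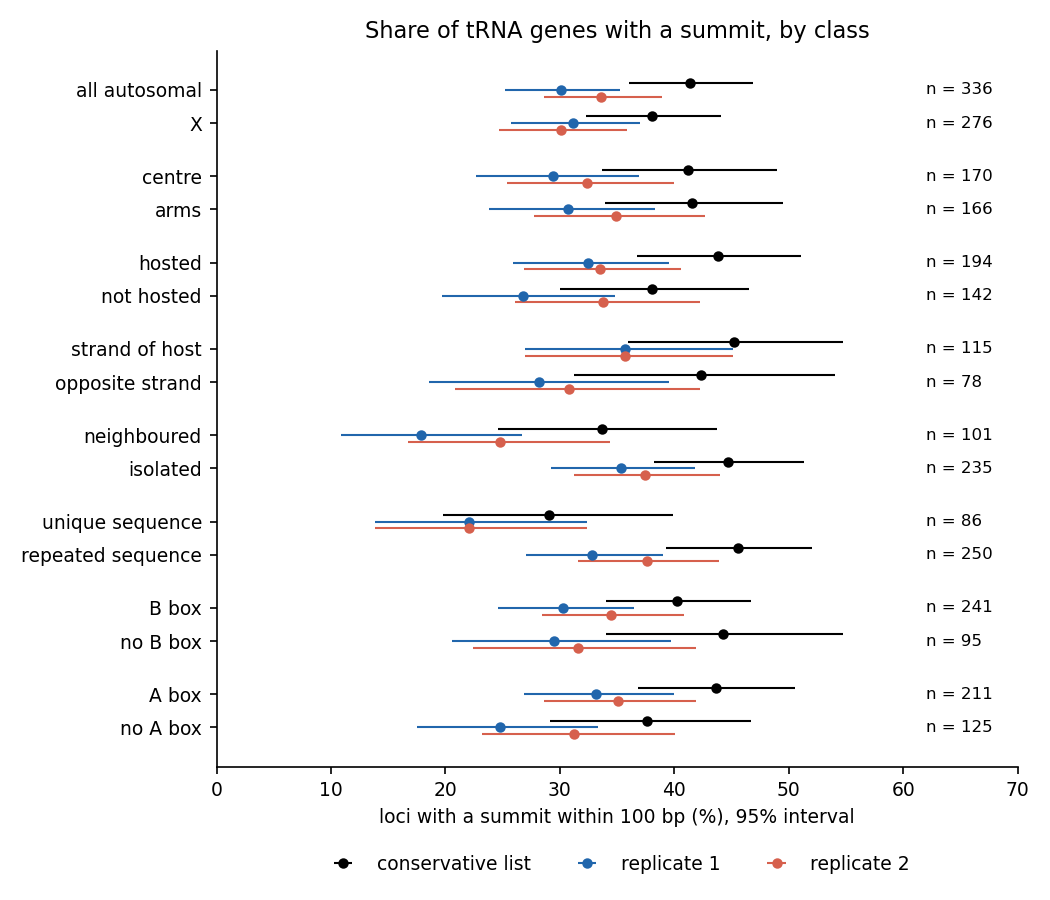
Share of tRNA genes with a summit within 100 bp (%), with Clopper-Pearson 95% intervals, for paired classes of loci in the conservative list (black), replicate 1 (blue) and replicate 2 (red). All classes but the X row are of autosomal loci. Neighboured genes sit left of isolated ones and unique genes left of repeated ones in each list, whereas the centre and arm values nearly coincide.

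Set beside X, autosomal tRNA genes were bound about as often, and the summits past the threshold had lower signals. The shares were 41.4% on the autosomes, against 38.0% (105 of 276) on X, a difference of 3.33 points (-4.46 to 11.0). Over the 43 sequences with copies on both, 108 of 223 autosomal copies were bound, against 81 of 185 copies on X. The median signal of summits at tRNA genes was 138 on the autosomes (135 summits, interquartile range 103 to 197), against 203 on X (103 summits, 121 to 262). In replicate 1 the medians were 85.3 on the autosomes, against 119 on X, and in replicate 2 they were 71.7 on the autosomes, against 99.8 on X. Over all loci with a candidate in the ranked list the order was the other way, with a median of 90.6 on the autosomes (247 loci), against 82.1 on X (199 loci). Summits away from tRNA genes did not follow the order of the thresholded tRNA summits, with a median of 95.2 on the autosomes (560 summits), against 83.4 on X (84 summits). Copies of the same sequence were compared over candidates of the ranked lists, not over the thresholded summits. The median signal of a sequence's copies on X was a median of 1.23 times that of its autosomal copies (interquartile range 0.793 to 1.89) and was the higher of the pair in 24 of 38 sequences with candidates on both. It was higher on X in 23 of 37 sequences in replicate 1 (median ratio 1.41) and in 22 of 38 in replicate 2 (1.12). These signals are described without a test, and their comparison was chosen after the medians were seen.

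Other genes copied by RNA polymerase III were also found among the bound genes. Of 8 such RNA genes 6 had a summit within 100 bp in the conservative list, against 3.14% of all nuclear genes annotated as ncRNA (244 of 7764). They were rpr-1, the RNA of RNase P that trims the leader of tRNA precursors (296), mrpr-1, the RNA of RNase MRP (291), and the signal recognition particle RNA genes srpr-2.2 (249), srpr-2.1 (171), srpr-1.2 (155) and srpr-1.1 (126). The Y RNA gene yrn-1 and srpr-3 had none. These signals lie within the range of the autosomal tRNA genes, whose summits had a median of 138.

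Genes that encode the polymerase III machinery were also looked up, and they are too few for a statement about the class. Of 12 looked up, 1 had a summit in the conservative list from 1000 bp upstream to 500 bp downstream of its start, against 2.45% of all protein-coding genes (489 of 19973). It was rpac-19, a subunit shared by RNA polymerases I and III, with a signal of 87.6. The other 11, among them brf-1 of TFIIIB, tbp-1 and the TFIIIC genes tftc-1, tftc-3 and tftc-5, had none.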

How the data were processed

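The data are peak lists on assembly ce11 from 2 replicates of 1 group. Per the deposited file descriptions, each replicate's lists derive from its own alignments and the joint lists from both, with the same control alignments throughout. The thresholded lists have 1 further input of unstated nature. No aligner, peak caller or version is given in the sources used here. Each deposited signal value (never negative) was used as is. The deposited score was at least 830 in every thresholded list and was only checked. The control alignments were not analysed here. Genes came from Ensembl release 115 and amino acids from RefSeq, by gene ID for all 612 nuclear loci, with 2 autosomal loci of undetermined type. Distances, host genes, copies and motifs were computed in Python 3.11.15 with pandas 2.3.3, numpy 2.4.6 and scipy 1.17.1. Shares carry Clopper-Pearson 95% intervals and differences Newcombe 95% intervals, called where they exclude 0, with no p-values and no adjustment over the 9 planned and 5 added contrasts. The functions were tested on simulated data. The loci named are the 12 strongest, the strongest of each autosome and of each amino acid with 20 or more loci, 4 unbound loci with the highest candidates, 3 loci on each side of the distance limit, the largest family and the densest groups. Others were chosen after their values were seen. The loci, classes and lists were chosen with earlier results of these data known.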

Additional observations from a re-analysis of the deposited data

How the results depend on the processing

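The number of bound loci was 139 and ran from 101 to 146 over the 9 other settings. No paired analysis was possible because there is 1 group. The autosome minus X difference turned to -1.23 points among peaks at or above the median signal and to -0.70 with summits inside the gene, and ran from -1.10 to 3.56 over single replicates. The B box difference turned to 1.65 and 1.42 under the same settings and ran from 0.82 to 2.86. The hosted difference ran from -0.298 to 5.71, and the centre minus arm difference turned to 0.156 with a 200 bp window. In all of these the interval included 0 throughout. Neighboured minus isolated excluded 0 at -14.1 (upper signals), -15.4 (inside the gene), -17.5 (50 bp), -14.98 (nearest gene) and from -17.5 to -12.7 over single replicates. It included 0 at -6.07 (the other list), -5.50 (200 bp) and -6.49 (peak overlap). It also included 0 when a neighbour was defined at 500 bp (-13.2, -24.8 to 0.447) or 5 kb (-10.2, -20.4 to 0.446). Unique minus repeated included 0 at -11.1 (inside the gene) and -11.5 (200 bp) and ran from -15.5 to -10.7 over single replicates. The median signal at autosomal tRNA genes was 1.34 times that of the whole list, and 1.44 in the other list, 0.972 among upper signals, 1.40 inside the gene, 1.36 within 50 bp and 1.03 to 1.06 over single replicates. The median summit offset was 20 to 21 bp over single replicates, 25 bp inside the gene and 21 bp among upper signals, with a 200 bp window and by peak overlap. With summits inside the gene, 55 loci were in both replicate lists, against 88. The cause was not tested. Adding 50 bp flanks to the copies left no repeated gene and so no value. Depth is unknown, and no list of a control pull-down was analysed here.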
